A study of Homo sapiens with 16 samples.

Results

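The 9 genes described here, of 32285 in the deposited matrices, encode components and regulators of complement: C1qa, C1qb, C1qc, C1ra, C1s1, C4b, C3, Cfb and Cfp. They were chosen by name, and the question was which cells of 2 mouse mammary tumors made each component. The tumors were LPA1-T22 and LPA1-T127, grafted as chunks of 25 mm3 into the mammary fat pad of female FVB mice 6 weeks old. Both lines came from tumors of mice with a transgenic LPA1 receptor in the mammary epithelium and were wild type for Brca1 and Brca2. T22 is described as sensitive to PARP inhibition and T127 as resistant. Daily oral olaparib at 50 mg/kg, an inhibitor of the DNA repair enzyme PARP, or vehicle followed. The labels give 14 days (T22) or 10 days (T127) from grafting to the choice of treatment, while 14 days for both lines is stated elsewhere for the short-term tumors, and T22 went in 14 days before T127 in mice with both. The short-term T22 and short-term T127 experiments had 4 pools each, from tumors treated for 4 or 8 days. The long-term experiment had 8 pools, from tumors treated for 20 days in mice that carried 1 line or, in opposite fat pads, both.

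Tumors were tagged with hashtag antibodies by the study's methods, while its reporting summary also lists a CellPlex tagging kit. They were freed of dead cells by annexin V and mixed before capture, and the files analysed give neither the tumor nor the drug of a cell. Each experiment was therefore taken as 1 sample and its pools as repeated captures, and vehicle and olaparib could not be compared. Whether every pool of an experiment held the same tumors is not given. Nothing below carries a p-value. The 2 short-term experiments were also separate captures, so model and capture cannot be told apart between them. Levels are UMIs (counted RNA molecules) summed over the cells of a deposited class and given as counts per 1000000 UMIs of those cells (CPM), with the range over pools. Such a level does not separate more RNA of a gene from less of the others.

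The long-term pools held 30845 cells and 34755906 to 44032925 UMIs each. Long-term pools 1 and 2 shared 3939 barcodes, pools 1 and 3 shared 987, and pools 2 and 3 shared 1082, against 1 to 8 in the other pairs. Pools 1 to 3 may thus not be fully separate captures, though each counts as a pool in the ranges below. With the deepest copy of each shared barcode kept, 25723 long-term cells were used. The short-term T22 pools held 15094 cells and 40270841 to 42436039 UMIs each, and the short-term T127 pools held 8007 cells and 49690430 to 55600377 UMIs each. Median UMIs per cell were 3105 to 11712, 7730 to 8528 and 22712 to 26017 in the pools of the 3 experiments. Classes with at least 50 cells in an experiment were described.

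Class names are the deposited ones, and markers did not bear out all of them. The authors clustered the cells on this same expression, so differences between classes and clusters are descriptions. CD14-IL1B cells carried the highest conventional dendritic markers of all classes, at 430 CPM (long-term), 944 CPM (short-term T22) and 723 CPM (short-term T127) over 5 genes, against 234, 308 and 235 CPM of monocyte markers. CD14-PF4 cells of the short-term T22 pools held 3539 CPM of neutrophil markers. Malign_2 held 7359 CPM of myofibroblast or mural markers in the long-term pools, and Malign_0 held 4470 CPM of the fibroblast list. The i_CAF class, named for inflammatory cancer-associated fibroblasts, led the fibroblast list at 22356 to 42414 CPM. The my_CAF class, named for myofibroblastic ones, led the mural list at 12895 CPM (long-term) and 14575 CPM (short-term T22).

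Complement is a cascade of plasma proteins that tags cells and debris for uptake and can lyse membranes. In its classical arm C1q binds a target and carries the proteases C1r and C1s, which cleave C4 and C2 into an enzyme that splits C3. In its alternative arm factor B pairs with C3b to split more C3, and properdin holds that enzyme together. Hepatocytes make most plasma complement, while macrophages are known as the main source of C1q. The hepatocyte markers Alb, Apoa1 and Ttr summed to at most 0.883 CPM in every class.

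The 9 genes fell into myeloid, fibroblast and mixed patterns. The deposited monocyte and macrophage classes, those named Macro, CD14 or CD16, gave 98.7% to 99.3% of the UMIs of C1qa, C1qb and C1qc, and 96.7% to 98.1% of those of Cfp. They gave 87.3% to 90.1% of Cfb UMIs. Without the CD14 classes, whose markers were partly dendritic or neutrophil, the Cfp shares were 89.6% (long-term), 94.5% (short-term T22) and 89.7% (short-term T127), and CD14-IL1B alone gave 7.86%, 1.92% and 5.13%. Fibroblasts gave 79.6% to 94.7% of C1s1 UMIs, while they were 0.975% to 5.33% of all UMIs. C3 and C4b had no single source, and their main source changed between experiments. These shares move with how many cells of a class were captured.

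**Figure D1:**
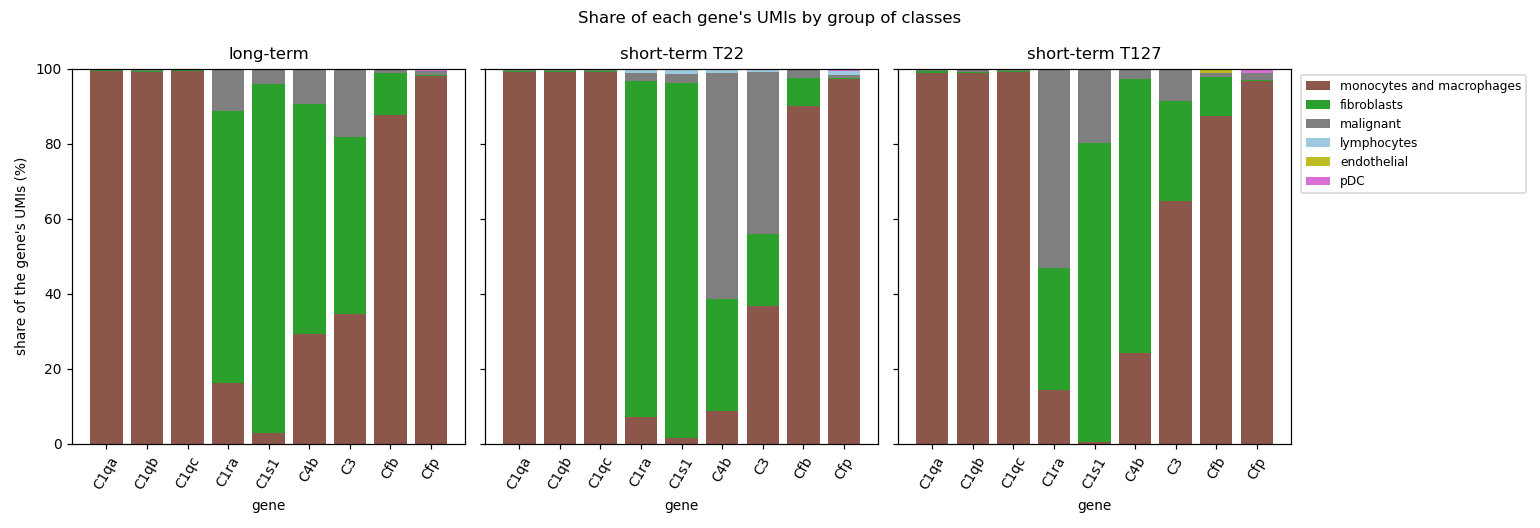
Share of each gene's UMIs (%, y axis) by group of classes for the 9 genes (x axis), 1 panel per experiment and 1 stacked bar per gene. C1q and Cfp UMIs were nearly all myeloid in each panel, while malignant cells held 43.2% of C3 UMIs and 60.5% of C4b UMIs in the short-term T22 pools and 8.41% and 2.90% in the short-term T127 pools.

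C1qa, C1qb and C1qc encode the chains of C1q, the recognition molecule of the classical arm. C1qa was 10099 CPM in long-term Macro-others (95% Poisson interval 10068 to 10129, counting error only). Its 8 pools ran from 9579 to 10398 CPM around a median of 10157. Macro-M1 followed at 10025 CPM (pools 9450 to 10682), Macro-M2 at 8632 CPM (7507 to 9314) and CD16-CDKN1C at 8512 CPM (7617 to 9346). The first pair overlapped in their pools, as did the second pair. Macro-MKI67, the class named for a proliferation gene, stood at 6529 CPM (5077 to 7443), below all pools of CD16-CDKN1C. CD14-PF4 held 2758 CPM with pools from 0 to 4259, and CD14-IL1B held 2334 CPM (1040 to 3041). C1qb and C1qc were also highest in Macro-others, at 6811 CPM and 5328 CPM.

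Outside the myeloid classes C1qa was low. The 6 lymphocyte classes of the long-term pools held 80.9 to 135 CPM, the 4 malignant clusters 30.5 to 72.2 CPM and i_CAF 282 CPM. Other macrophage genes were also found there. In Malign_0 C1qa was 0.353% of its Macro-M2 level, and 8 macrophage genes such as Lyz2 and Csf1r had a median of 0.614% of theirs (0.305% to 2.98%). In CD4_Tcm-TCF7 T cells C1qa was 1.56% and the median 1.85% (0.961% to 3.19%), and in i_CAF they were 3.26% and 2.92% (1.305% to 16.2%). C1qa thus lay within the range of the 8 genes in these 3 classes, and the part of free RNA in its level there was not tested.

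To compare shares of cells, each cell was thinned to 3000 UMIs and shallower cells were left out, which kept 3510 of 3567 long-term, 670 of 670 short-term T22 and 1174 of 1174 short-term T127 Macro-M2 cells. C1qa was then seen in 83.7% of long-term Macro-M2 cells, 74.4% of short-term T22 ones and 45.3% of short-term T127 ones. Without thinning the shares were 89.2%, 79.0% and 50.7%. In CD4_Tcm-TCF7 cells, which should lack C1q, the thinned shares were 20.7%, 7.17% and 6.72%. They came from the 513 of 1136, 2216 of 2438 and 86 of 204 cells that were deep enough. Over all cells of the class the medians were 2758, 6403 and 2804 UMIs, against 11168, 13221 and 11286 in Macro-M2. All 3 chains were seen together in 79.3%, 70.8% and 38.5% of Macro-M2 cells, and none of them in 13.0%, 23.1% and 51.7%. Macro-M2 cells of the short-term T127 pools therefore held C1q in some cells and no C1q UMI in others. Macro-others of the same pools were alike, with none of the 3 chains in 46.2% of cells against 2.79% in short-term T22. Monocyte markers stood at 1587 CPM in short-term T127 Macro-M2 and at 636 CPM in short-term T22, and their part in this result was not tested.

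The short-term T22 pools put C1qa in Macro-M2 at 5193, 4858, 5883 and 5732 CPM. The short-term T127 pools put it at 3001, 3897, 4026 and 3455 CPM. Every T22 pool stood above every T127 pool. The summed ratio was 1.51 for C1qa (1.49 to 1.53), 1.75 for C1qb (1.72 to 1.78) and 2.05 for C1qc (2.02 to 2.09), where the intervals are exact binomial ones for counting error. Genes with at least 10 CPM in 1 of the groups were examined, and a ratio of 2-fold or more is called past the fold here. C1qc was just past it, and without short-term T127 pool 1 its log2 ratio fell from 1.04 to 0.97. In CD16-CDKN1C the C1qa levels were 6458 CPM (6387 to 6548) and 6146 CPM (5784 to 6412), with pools that overlapped. This class was shallow and unequal, with 4205 cells at a median of 2407 UMIs in short-term T22. In short-term T127 it had 402 cells at a median of 4922 UMIs, which limits all its contrasts below. Of the 6 myeloid classes compared, CD14-IL1B showed the widest gap, with 648 CPM (350 to 1197) in short-term T22 and 224 CPM (122 to 291) in short-term T127.

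Relative to C1qa, less C1qb and C1qc was found in the short-term T127 captures than in the T22 ones. In short-term T22 there were 0.488 to 0.527 C1qc UMIs per C1qa UMI over the 5 classes Macro-M1, Macro-M2, Macro-others, Macro-MKI67 and CD16-CDKN1C. In short-term T127 there were 0.333 to 0.374 over the 4 of these classes with enough cells. In Macro-M2 the pools ran from 0.485 to 0.537 and from 0.359 to 0.381, and they did not overlap. C1qb per C1qa in Macro-M2 was 0.620 (0.613 to 0.628) and 0.533 (0.514 to 0.556), again apart. Long-term Macro-M2 stood at 0.531 (0.455 to 0.620) for C1qc and 0.682 (0.626 to 0.742) for C1qb. The long-term captures thus spread over these ratios as widely as the short-term experiments stood apart. C1qb and C1qc per C1qa were lower in T127 in each of the 4 classes held by both models.

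**Figure D2:**
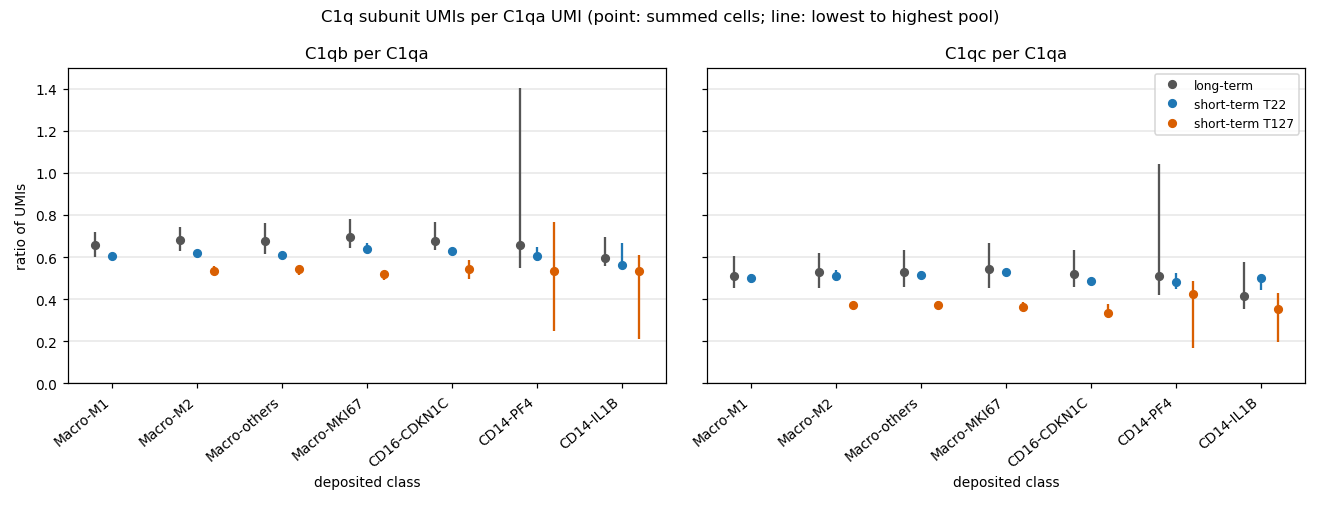
C1qb (left) and C1qc (right) UMIs per C1qa UMI (y axis) in the 7 myeloid classes (x axis), with points for summed cells, lines for the lowest to highest pool and colors for the experiments. In Macro-M2 the short-term T127 points, at 0.533 and 0.373, lay below the short-term T22 points, at 0.620 and 0.509, with no overlap of their lines.

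C1ra and C1s1 encode the proteases C1r and C1s that ride on C1q. Unlike C1q, they were fibroblast genes. C1s1 in i_CAF was 227 CPM in the long-term pools (lowest 159, median 208, highest 298). The short-term T22 pools held 201, 244, 248 and 255 CPM, and the short-term T127 pools held 258, 267, 153 and 328 CPM. The short-term pools overlapped, with a summed ratio of 0.960 (0.867 to 1.07), and the sign of that small difference changed when some pools were left out. C1ra in i_CAF was 161 CPM in the long-term pools (123 to 188), 122 CPM in short-term T22 (106 to 130) and 165 CPM in short-term T127 (117 to 208), and the last pair overlapped. C1s1 was seen in like shares of i_CAF cells, 45.8%, 46.7% and 46.5% of thinned cells of the long-term, short-term T22 and short-term T127 pools, the smallest spread of the 5 stromal members C1ra, C1s1, C4b, C3 and Cfb.

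my_CAF was the other class with both proteases. C1s1 there was 98.3 CPM long-term and 125 CPM in short-term T22, and C1ra was 40.4 CPM and 35.5 CPM. Every other class held at most 2.65 CPM of C1s1. Macrophages, which made the C1q, held 0.316 CPM of C1s1 in long-term Macro-M2, or 0.139% of the i_CAF level, against a median of 0.126% for 6 fibroblast genes such as Col1a1 (0.092% to 0.859%). C1ra in the same cells was 4.43 CPM (3.39 to 5.57), or 2.76% of i_CAF. In the short-term T127 pools malignant cells gave 52.9% of all C1ra UMIs (48.6% to 57.2%) at only 2.96 CPM, since they held 84.1% of all UMIs. Short-term T22 malignant cells held 0.453 CPM. C1ra and C1s1 each have a close copy, C1rb and C1s2, and reads shared with it could be split between them. C1rb and C1s2 were also highest in i_CAF, at 99.0 CPM and 44.8 CPM.

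**Figure D3:**
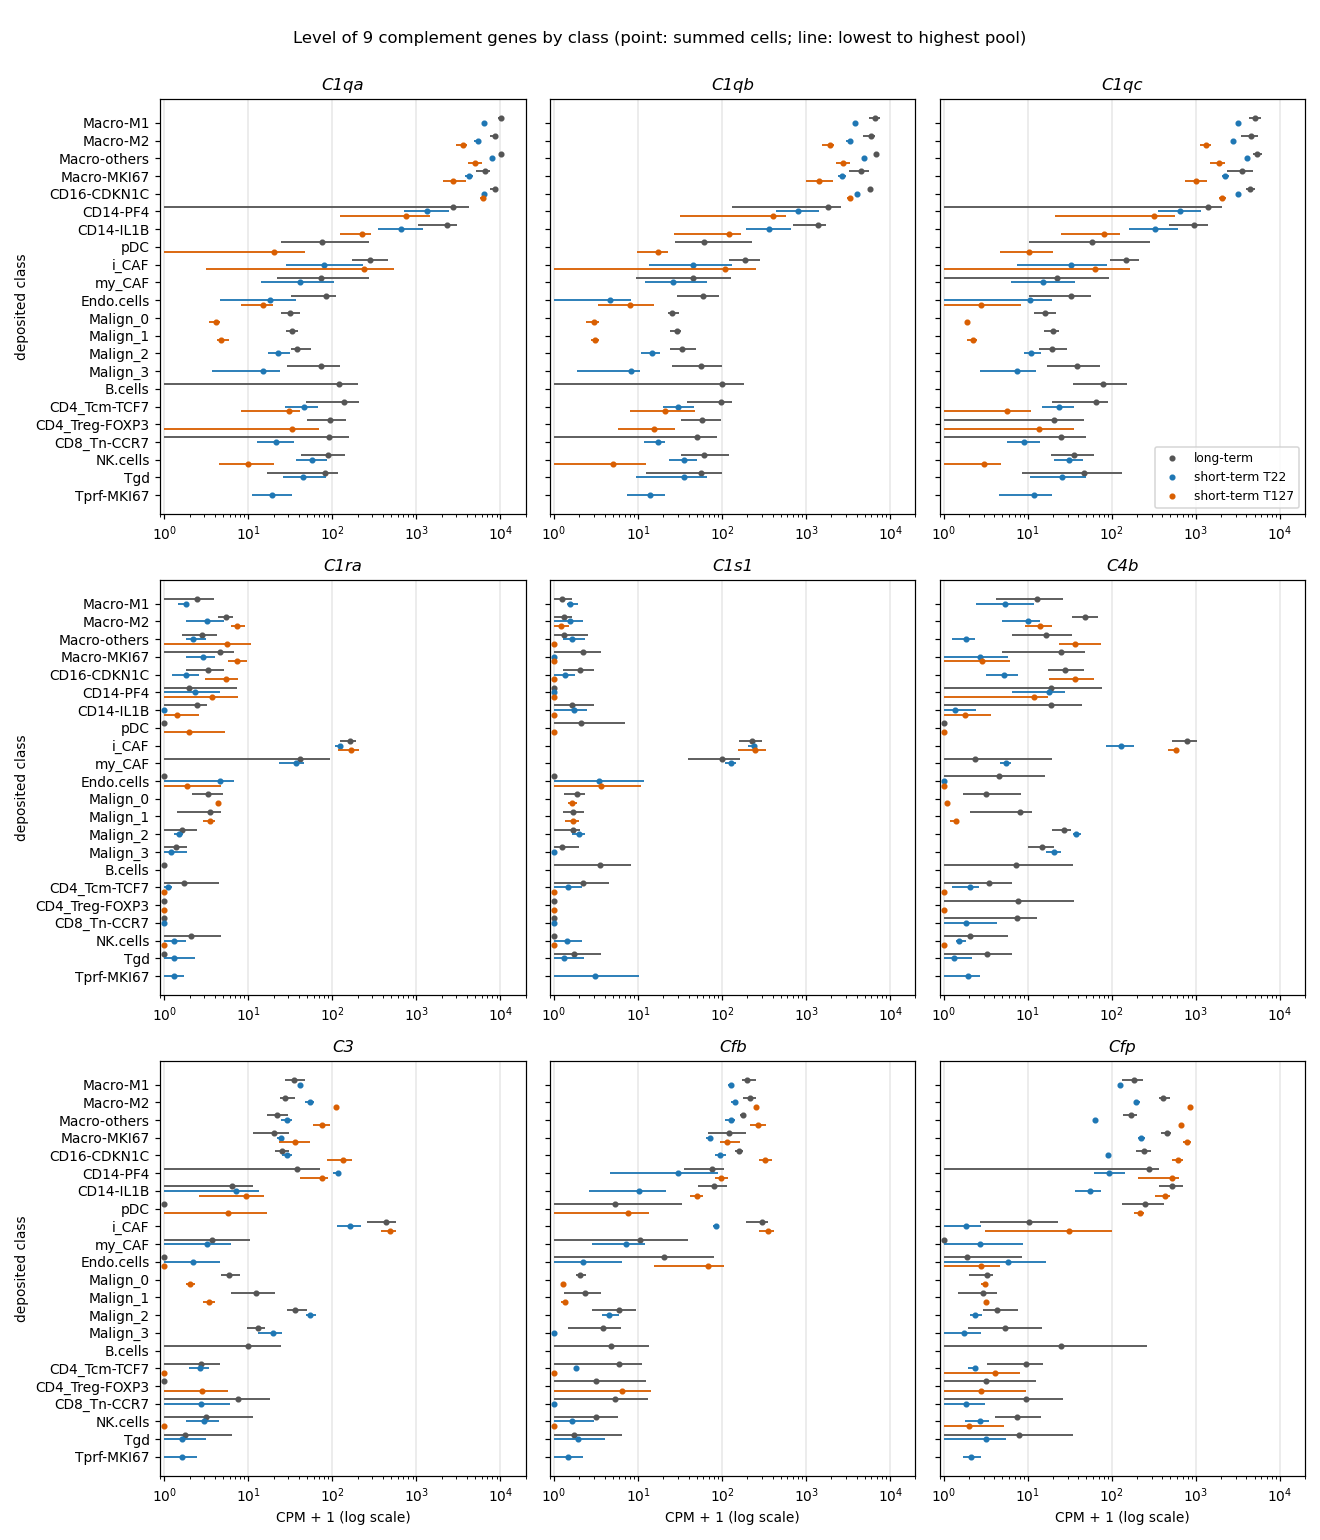
CPM + 1 on a log scale (x axis) of the 9 genes in the deposited classes (y axis), 1 panel per gene, with points for summed cells, lines for the lowest to highest pool and colors for the 3 experiments. C1q was high across the myeloid classes, C1ra and C1s1 in i_CAF and my_CAF, and C4b in i_CAF, where it was 786 CPM in the long-term pools against 47.6 CPM in Macro-M2, the next class.

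C4b encodes C4, the first substrate of C1s. It was led by i_CAF in all 3 experiments, and its level there differed between the models. In the long-term pools i_CAF held 786 CPM (lowest 520, median 754, highest 1027). The short-term T127 pools held 637, 565, 467 and 638 CPM, while the short-term T22 pools held 122, 83.7, 184 and 111 CPM. All 4 T127 pools stood above all 4 T22 pools, with a T22 to T127 ratio of 0.221 (0.202 to 0.242). C4b was seen in 68.3% of thinned i_CAF cells of the long-term pools, 58.8% of short-term T127 ones and 13.9% of short-term T22 ones. Without thinning the shares were 83.9%, 83.2% and 28.9%. Macro-M2, at 7.38%, 3.00% and 1.86% after thinning, served as the low class. Reads of C4b could also be split with its copy C4a, which stayed under 10 CPM in every long-term class.

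C3 encodes the protein at which the arms of complement meet. It followed C4b in i_CAF, with 438 CPM in the long-term pools (lowest 257, median 417, highest 572). The short-term T127 pools held 577, 530, 377 and 471 CPM and the short-term T22 pools 137, 114, 218 and 176 CPM, again with no overlap. The T22 to T127 ratio was 0.335 (0.307 to 0.365). C3 and C4b were seen together in 43.8% of thinned long-term i_CAF cells, 38.5% of short-term T127 ones and 9.07% of short-term T22 ones. Neither was seen in 23.9%, 33.7% and 77.3%.

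In i_CAF as a whole 6 of the 9 genes were past the fold and lower in short-term T22 than in T127, namely C1qa, C1qb, C3, C4b, Cfb and Cfp, and none was higher. Over all genes examined in i_CAF 6.06% were lower past the fold, so the members' count stood above that background. Of the 6, Cfp reached 10 CPM only in T127. The median log2 ratio of the 9 was -1.57, and that of all genes examined was 0.06. C1qa, C1qb and Cfp are macrophage genes, and their i_CAF levels varied widely among the T127 pools, from 2.14 to 536 CPM for C1qa. Summed macrophage markers in i_CAF were 150 CPM in short-term T127 (6.42 to 354) and 41.9 CPM in short-term T22 (20.6 to 102), and their part in these 3 genes was not tested. Without T127 pool 3 the log2 ratios of C1qa and C1qb, -1.58 and -1.26 with all pools, were -0.69 and -0.28, and 3 other pools each took C1qb back under the fold. Cfp in T127 i_CAF was 99.6 CPM in pool 3 and 2.14 to 6.93 CPM in the other pools, and without pool 3 its T127 level was 4.27 CPM, too low to be examined, and its log2 ratio went from -4.07 to -1.51. C3, C4b and Cfb stayed past the fold without any 1 pool. In T127 pools 1 and 2 C1qa was 7.93 and 2.14 CPM, and C3 there was 577 and 530 CPM, above its level in pools 3 and 4. The short-term T127 i_CAF class had 95 cells and the T22 class had 291.

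**Figure D4:**
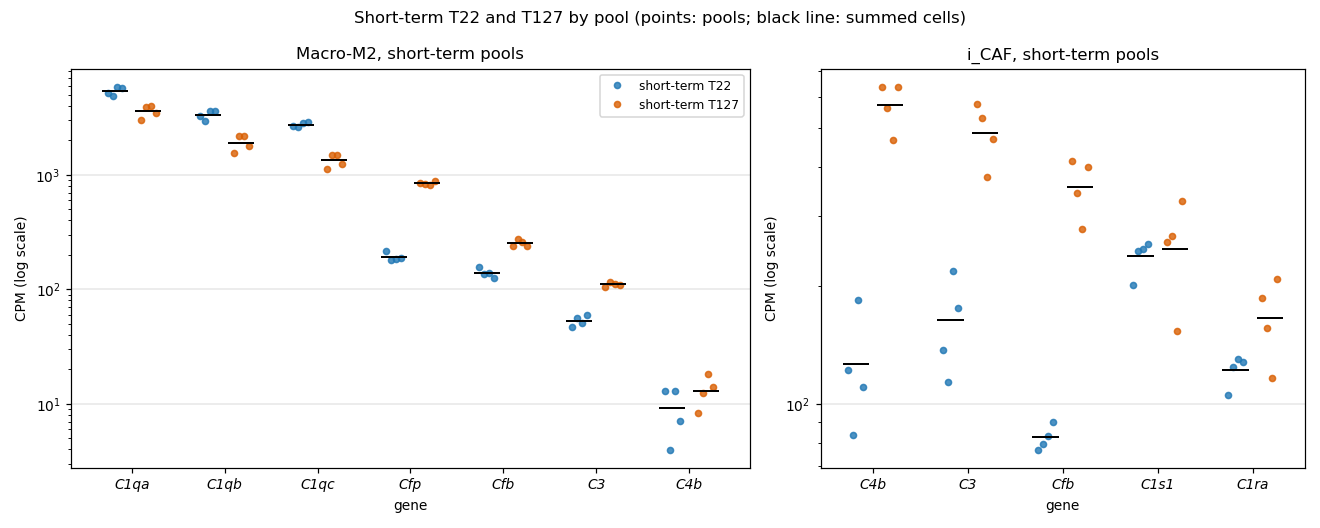
CPM on a log scale (y axis) of members (x axis) in Macro-M2 (left) and i_CAF (right), with 1 point per short-term pool, colors for the models and black lines for summed cells. C4b, C3 and Cfb in i_CAF and Cfp in Macro-M2 were higher in all 4 short-term T127 pools than in all 4 T22 pools, while C1q in Macro-M2 was lower.

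i_CAF and my_CAF differed in C3 and C4b far more than in the C1 proteases. Long-term C3 was 438 CPM in i_CAF and 2.69 CPM in my_CAF, which rested on 2 UMIs, a ratio of 163 with a counting interval of 45.0 to 1344. C4b rested on 1 UMI in my_CAF, and its ratio was 583 (105 to 23042). Cfb was 299 CPM against 9.43 CPM, a ratio of 31.7 (15.3 to 78.8). The C1s1 ratio was 2.31 (1.83 to 2.95) and that of C1ra was 3.98 (2.77 to 5.91). All 8 members examined were higher in i_CAF past the fold, where 14.5% of all genes examined were, and 3 of them were the C1q chains, whose i_CAF levels stand above beside those of other macrophage genes. C3, C4b and Cfb reached 10 CPM only in i_CAF, so they could not be lower there. As the classes were made from these same data, the counts give no support for a difference between them. In short-term T22 5 of 8 were, against 11.1% of all genes, namely C3, C4b, Cfb, C1ra and C1qc. The C1qc log2 ratio of 1.12 became -0.12 without pool 1. C3 was 163 CPM against 2.26 CPM there. my_CAF had 117 long-term and 129 short-term T22 cells, and 8 in short-term T127, too few to describe.

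C3 and C4b were also found in malignant cells, mainly of the T22 line. Malign_2 and Malign_3 were the malignant clusters of the short-term T22 pools, and Malign_0 and Malign_1 those of the short-term T127 pools. In short-term T22 malignant cells C3 was 48.6, 49.2, 44.0 and 59.2 CPM, and in short-term T127 ones 1.52, 1.42, 1.67 and 2.12 CPM. C4b was 38.6, 33.2, 31.6 and 35.1 CPM against 0.275, 0.117, 0.293 and 0.313 CPM. The ratios were 29.9 (26.5 to 33.9) for C3 and 139 (103 to 192) for C4b. The long-term pools held cells of both lines in the same captures. There C3 was 25.9 CPM in T22 malignant cells (lowest 21.1, median 24.9, highest 35.0) and 7.40 CPM in T127 ones (4.84, 7.92 and 9.12), a ratio of 3.50 (3.18 to 3.86). C4b was 21.0 CPM (16.2, 20.3 and 27.0) and 4.12 CPM (0.912, 4.13 and 6.60), a ratio of 5.09 (4.51 to 5.74). The pool ranges did not overlap for either gene.

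Changes past the fold were common between the malignant cells of the lines, so these counts say little about the members as a group. Of 5 members examined in the long-term pools 2 were higher in T22 and none lower, where 37.8% of all genes were past the fold in either direction. Those 2, C3 and C4b, reached 10 CPM only in T22 cells, so they could not be lower there. In the short-term pools 4 of 4 were higher, where 41.3% of all genes were past it in either direction. All 4 reached 10 CPM only in T22 cells, so their direction was fixed by the floor. The other pair there was C1qa and C1qb, at 20.9 CPM and 12.9 CPM in T22 and at 3.43 CPM and 2.04 CPM in T127, which were 0.387% and 0.386% of Macro-M2 in T22.

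Within the T22 line C3 was higher in Malign_2 than in Malign_3, at 35.2 CPM (28.0 to 49.2) and 12.0 CPM (8.56 to 14.6) in the long-term pools. C4b was 25.8 CPM (18.3 to 32.1) and 13.8 CPM (9.08 to 19.5), with pools that overlapped. Of 5 members examined 1 was higher, C3, and 1 was lower, C1qc, where 19.6% of all genes were past the fold. The clusters within each line were made from these same data, so these counts are descriptions. C1qc, at 18.5 CPM and 38.1 CPM, was at the edge of the fold, and its log2 ratio of -1.003 was -0.86 without long-term pool 4, -0.94 without pool 6 and -0.97 without pool 7. Within the T127 line C3 was 11.2 CPM in Malign_1 (5.22 to 20.0) and 4.91 CPM in Malign_0 (3.80 to 6.96), with pools that overlapped. It was the 1 member of 4 past the fold, where 2.05% of all genes were, and its log2 ratio of 1.05 was 0.98 without long-term pool 3 and 0.93 without pool 6. Of these 2 clusters, only Malign_1 reached 10 CPM of C3. At full depth C3 was seen in 56.8% of short-term T22 Malign_2 cells, with a median of 25195 UMIs, and in 2.19% of short-term T127 Malign_0 cells, with a median of 36205. The thinned shares were 14.3% and 0.376%.

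Levels of other fibroblast genes in the same malignant cells stand beside these values. C3 and C4b in short-term T22 Malign_2 were 32.8% and 28.7% of their i_CAF levels, while 6 fibroblast genes had a median of 0.051% and a highest value of 18.4%, for Dcn. In Malign_3 they were 11.6% and 15.6%, where the highest of the 6 was 0.228%. In long-term Malign_2 the values were 8.03% and 3.28%, between the median of 0.393% and the 11.8% of Dcn. Both genes therefore lay above the fibroblast list in short-term T22.

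**Figure D5:**
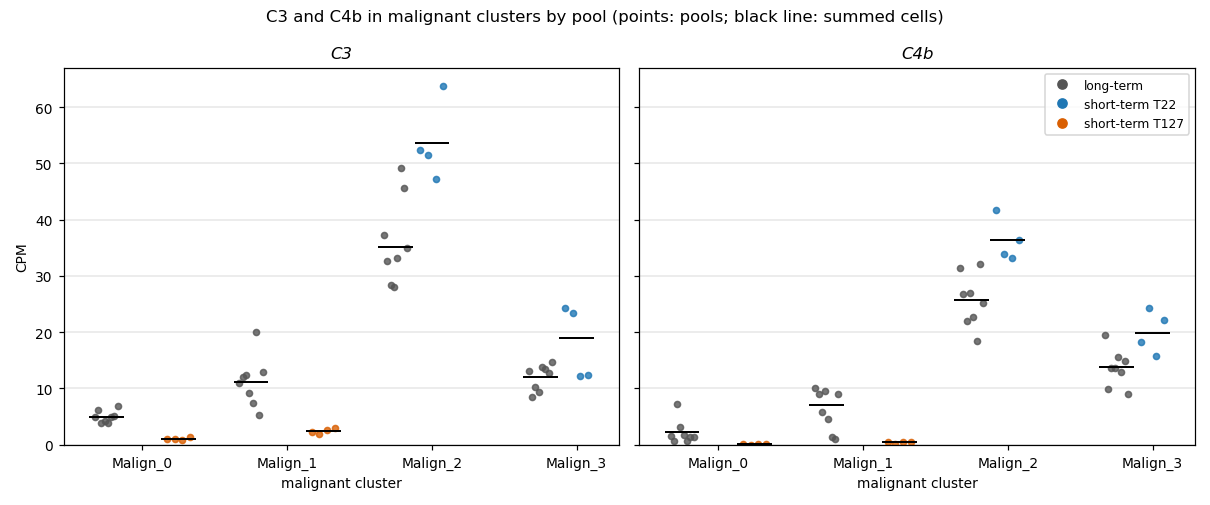
CPM (y axis, from 0) of C3 (left) and C4b (right) in the 4 malignant clusters (x axis), with 1 point per pool, colors for the experiments and black lines for summed cells. Malign_2 of the short-term T22 pools stood highest for both genes, with C3 from 47.2 to 63.8 CPM, and Malign_0 and Malign_1 of the short-term T127 pools stood at or below 3.05 CPM.

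Macrophages were a further source of C3. In Macro-M2 the short-term T127 pools held 105, 117, 110 and 108 CPM and the short-term T22 pools held 46.4, 56.2, 50.8 and 59.5 CPM. The T127 pools were all higher, and the T22 to T127 ratio was 0.483 (0.436 to 0.535), at the edge of the fold, since without short-term T22 pool 1 its log2 value went from -1.04 to -0.97. CD16-CDKN1C held 134 CPM (86.5 to 170) in T127 and 28.2 CPM (24.5 to 31.7) in T22. Monocytes and macrophages gave 64.6% of C3 UMIs in short-term T127 (58.3% to 68.0%), 36.9% in short-term T22 and 34.6% in the long-term pools. C3 in Macro-M2 was 22.6% of its i_CAF level in short-term T127, where the fibroblast list had a median of 0.024%. CD14-PF4 of the short-term T22 pools held 115 CPM of C3 (101.7 to 127.4) in 66 cells, the class with the neutrophil markers named above.

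C4b in macrophages was lower and less even. Long-term Macro-M2 held 47.6 CPM (32.6 to 67.1) and Macro-M1 held 11.7 CPM (3.18 to 25.0), a ratio of 4.05 (3.41 to 4.85). In Macro-others C4b was 0.845 CPM in short-term T22 (0.269 to 1.35) and 35.9 CPM in short-term T127, where pool 2 stood at 73.2 CPM and the others at 22.6 to 30.7 CPM. The fibroblast list summed to 31.6 CPM in T22 Macro-others (28.2 to 34.1) and to 36.7 CPM in T127 ones (21.4 to 56.9). Epithelial markers were 71.4 CPM and 823 CPM in the same classes, and their part in the result was not tested.

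Cfb encodes factor B, the alternative-arm partner of C3b. It was shared by macrophages and fibroblasts. In the long-term pools i_CAF led at 299 CPM (191 to 352) and overlapped with Macro-M2 at 212 CPM (177 to 250), followed by Macro-M1 at 197 CPM, Macro-others at 175 CPM and CD16-CDKN1C at 158 CPM. The order of Macro-M2 and i_CAF turned between the models, a difference that was not tested. In short-term T22 Macro-M2 held 140 CPM (126 to 156) and i_CAF 82.7 CPM (76.8 to 90.4), while in short-term T127 Macro-M2 held 254 CPM (239 to 277) and i_CAF 356 CPM (278 to 413). Endothelial cells held 66.3 CPM in short-term T127 (14.6 to 106), from 75 UMIs, of which 45 were in pool 2 and without which the level was 42.5 CPM, and 1.22 CPM in short-term T22, from 1 UMI, a T22 to T127 ratio of 0.018 with an interval of 0.00046 to 0.106. The fibroblast list stood at a median of 0.146% of its i_CAF level in those T127 endothelial cells, where Cfb stood at 18.6%.

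Cfp encodes properdin, a positive regulator of the alternative arm. It was lower in short-term T22 than in T127 in all 6 myeloid classes compared. Macro-M2 of the short-term T22 pools held 214, 182, 183 and 187 CPM. The short-term T127 pools held 855, 826, 811 and 882 CPM, all far above, and the T22 to T127 ratio was 0.228 (0.216 to 0.239). The same gap was seen in Macro-others (61.9 and 672 CPM), CD16-CDKN1C (88.9 and 608 CPM), Macro-MKI67 (221 and 781 CPM), CD14-IL1B (54.0 and 424 CPM) and CD14-PF4 (92.5 and 525 CPM), and the pools did not overlap in any of these classes. After thinning Cfp was seen in 83.4% of short-term T127 Macro-M2 cells, 28.9% of T22 ones and 45.8% of long-term ones, against 96.8%, 53.3% and 64.7% without thinning. NK cells, as the low class, held 0.143%, 0.504% and 2.55% after thinning.

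The order of the myeloid classes by Cfp differed from that by C1qa in the long-term pools. There Cfp was highest in CD14-IL1B at 519 CPM (362 to 697), which was lowest in C1qa, and lowest in Macro-others at 168 CPM (134 to 199), which was highest in C1qa. Macro-MKI67 held 450 CPM (384 to 501) and Macro-M2 404 CPM (362 to 486), and the pools of both overlapped those of CD14-IL1B. The pools of Macro-others overlapped those of Macro-M1 (133 to 235). In both short-term experiments CD14-IL1B was instead the lowest of the 6 classes compared in both genes, at 54.0 CPM (T22) and 424 CPM (T127) of Cfp, with pools that overlapped those of the next class. Over all 21 long-term classes, lymphocytes and malignant cells included, r between C1qa and Cfp was 0.85. pDC, the plasmacytoid dendritic class, held 248 CPM (132 to 416) in the long-term pools and 215 CPM (181 to 243) in short-term T127. That was 61.2% and 25.4% of the Macro-M2 level, where the 8 macrophage genes had medians of 1.09% and 1.92%.

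Read over the myeloid classes, members past the fold that were higher in short-term T22 were C1q chains, and those lower were C3, C4b, Cfb and Cfp. In Macro-M2 1 of 7 members examined was higher in T22 (C1qc) and 2 were lower (C3 and Cfp), where 13.6% of all genes were past the fold. The counts were 1 and 4 of 7 in Macro-others (17.0% of all genes), in CD16-CDKN1C 0 and 4 of 7 (19.1%), in Macro-MKI67 1 and 1 of 6 (13.8%) and in CD14-IL1B 3 and 2 of 5 (12.3%). The members' counts were above the background shares in each of these 5 classes, though they rest on few members and some calls were at the edge of the fold. The 3 higher in CD14-IL1B were the C1q chains, which had r of 0.99 or more over the long-term classes. C4b in Macro-others and CD16-CDKN1C, and Cfb in CD14-IL1B, reached 10 CPM only in T127. In CD14-PF4, for which no background share was computed, C1qb and C1qc were higher past the fold and Cfb and Cfp lower. In Macro-M2 the C1qc log2 ratio went from 1.04 to 0.97 without short-term T127 pool 1. That of C3 went from -1.04 to -0.97 without short-term T22 pool 1. In Macro-others the Cfb log2 ratio of -1.10 was -0.95 without short-term T127 pool 3. Cfp was the 1 member past the fold and lower in T22 in all 5. Epithelial markers in the T127 classes were 298 CPM in Macro-M2, 823 CPM in Macro-others and 690 CPM in Macro-MKI67 against 72.0, 71.4 and 243 CPM in T22, and their part in these counts was not tested.

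Macro-M1 and Macro-M2, named for the classically and alternatively activated states, differed in few members. They too were made from these same data, so their counts are descriptions. C4b and Cfp were higher in long-term Macro-M2 past the fold, 2 of 7 members examined, where 3.14% of all genes were past it. Cfp was 404 CPM (362 to 486) in Macro-M2 and 182 CPM (133 to 235) in Macro-M1, a ratio of 2.23 (2.13 to 2.33). In short-term T22 none of 6 was past the fold, where 2.57% of all genes were, and the Cfp ratio was 1.53 (1.44 to 1.63). C1qa was lower in Macro-M2 in both, with ratios of 0.861 (long-term) and 0.852 (short-term T22), and the pools overlapped in neither experiment.

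Values without the long-term pools 1 to 3, which shared barcodes, moved by no more than the standard deviation over pools. Leaving out a few pools can hardly move a value beyond that limit. It therefore does not show that the shared barcodes are without effect. C1qa in Macro-others was 10059 CPM, C3 in i_CAF 487 CPM, C4b in i_CAF 879 CPM, Cfb in i_CAF 302 CPM, Cfp in CD14-IL1B 551 CPM, C1s1 in i_CAF 252 CPM and C1ra in i_CAF 166 CPM. The log2 ratio of T22 to T127 malignant cells was 1.82 for C3 and 2.36 for C4b, against 1.68 and 2.10 with all pools. Long-term pools 1 to 4 and pools 5 to 8 stood apart for some members. C4b in i_CAF was 520 to 664 CPM in the former and 843 to 1027 CPM in the latter. C1qc in Macro-M2 was 5192 to 5488 CPM and 3413 to 3930 CPM. C1ra in i_CAF overlapped, at 123 to 182 CPM and 139 to 188 CPM. The reason was not tested, and leaving out 1 pool at a time does not show it.

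Of 42 other complement genes, taken as a list of recognition molecules, early and terminal components, regulators and receptors, 16 reached 100 CPM in at least 1 long-term class and 16 stayed under 10 CPM in all. The terminal components, which form the membrane pore, were low: none of 7 reached 100 CPM and 5 stayed under 10 CPM. Of the list genes at 10 CPM or more Macro-M2 led 7, i_CAF 6 and my_CAF 4. Serping1, the C1 inhibitor that stops C1r and C1s, was 2558 CPM in i_CAF (2044 to 2948) and 1534 CPM in my_CAF, the same classes that held C1ra and C1s1. Cd55, a membrane regulator that speeds decay of the C3-splitting enzyme, was 385 CPM in i_CAF. C2, the partner of C4, was 104 CPM in i_CAF, and Colec12, a collectin that binds sugars, was 203 CPM. Vtn, a plasma inhibitor of the pore, was 126.6 CPM in my_CAF, and Clu, another, was 312 CPM in Malign_3 (215 to 447). Clu in i_CAF was 303 CPM in the long-term pools (97.9 to 640), 3.38 CPM in short-term T22 and 7.27 CPM in short-term T127, while short-term T22 Malign_3 held 225 CPM.

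Of 7 receptor genes at 100 CPM or more, 5 were highest in Macro-M2 or Macro-M1 and 2, Cd93 and Rps19, were highest elsewhere. C3ar1, the receptor of the C3 fragment C3a, was 338 CPM in Macro-M2 (321 to 352), and C5ar1, which binds C5a, was 234 CPM (177 to 296). Itgam, a chain of complement receptor CR3, was 249 CPM in Macro-M2 and its partner Itgb2 was 165 CPM, while Itgax, a chain of CR4, was highest in Macro-M1 at 205 CPM. Cd93 was 1200.2 CPM in endothelial cells, which also led Cr1l, a membrane regulator, at 136 CPM. Cd59a, which blocks the pore, was 397 CPM in pDC. Rps19, a ribosomal protein listed as a partner of the C5a receptor, was highest in CD8_Tn-CCR7 at 3134 CPM.

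In i_CAF 3 of 11 list genes examined were past the fold and lower in short-term T22 than in T127, namely C2, Serping1 and Itgam, the last a gene of myeloid cells, where 6.06% of all genes were lower. Itgam, at 2.11 CPM in T22 and 11.4 CPM in T127, reached 10 CPM only in T127. None was higher past the fold and 8 were within it, among them Colec12 at 404 CPM in T22 and 321 CPM in T127. C2 was 34.7 CPM (21.2 to 44.4) in T22 and 129 CPM (101 to 159) in T127, and Serping1 was 980.1 CPM (860.1 to 1134) and 2246 CPM (1484 to 2825). In malignant cells 4 of 6 examined were higher in T22 and 1 was lower, in both the long-term and the short-term pools. There 37.8% and 41.3% of all genes were past the fold in either direction. Of the genes higher in T22, Cd59a, Cd55 and Serping1 reached 10 CPM only in T22 cells, so they could not be lower there. Cd59a was 100.4 CPM in T22 and 0.429 CPM in T127 long-term cells, Cd55 was 21.7 CPM and 0.409 CPM, and Clu was 146 CPM and 15.7 CPM. Serping1 was 14.8 CPM and 1.91 CPM, while Cr1l went the other way at 25.0 CPM and 59.3 CPM. In Macro-M2 Itgam and Cd93 were lower in short-term T22, and Itgax was higher, at 253 CPM against 85.9 CPM.

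The genes most alike to each member over the 21 long-term classes, by Pearson's r of log2 levels among 11785 genes, followed the same split. For C1qa they were Csf1r (0.99), Aif1 (0.99) and Lyz2 (0.99), all macrophage genes. For Cfp they included Tifab (0.96) and Pirb (0.96), and for Cfb they were Abcd2 (0.94), Ttyh3 (0.94) and Plau (0.93). C3 had Olfml3 (0.88), Hpgd (0.82) and Pdgfc (0.81), and C4b had Arsi (0.86), Ptx3 (0.82) and Pdgfc (0.81). C1s1 had Fbn2 (0.98), Loxl2 (0.98) and Nnmt (0.97), and C1ra had C1rb (0.95), Nova1 (0.92) and Nnmt (0.92). Among the members r was 0.87 between C3 and C4b, 0.89 between C1s1 and C1ra, and -0.13 between C1qa and C1s1. The classes share libraries and free RNA and are of unequal depth, so these are descriptions.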

How the data were processed

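Single cells of tumor pools were captured on the 10x Genomics platform. Per the study's methods and the submitters' processing notes, the authors ran Cell Ranger 6.0.0 with intronic reads on a mouse reference (GRCm38), filtered cells, removed doublets with Scrublet and named classes, and no doublet step was added here. The authors deposited raw UMI counts, 1 row per cell with a class name, which were used as deposited. No column of per-sample values lacked a sample (0).

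From these counts UMIs were summed by class and experiment for all 32285 genes with pandas 2.3.3 and scipy 1.17.1 in Python 3.11.15. In the long-term pools the deepest copy of a shared barcode was kept. Intervals are exact 95% Poisson, or binomial for a ratio, and cover counting error only. Log2 ratios used a pseudocount of 1 CPM, and genes with 10 CPM or more in 1 group were set against a 2-fold limit with no p-value. Thinning was the exact hypergeometric expectation at 3000 UMIs. The scripts were tested on simulated data.

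Named were the 9 members in every class, genes of the 42-gene list with 100 CPM or more in a long-term class, and the 3 genes most alike to each member. Values of 2 genes that this rule would name are not reported here. Other genes of the list were given only by count, apart from the gene copies C1s2 and C4a. Marker genes were named where they served as a reference. The members and lists were chosen with earlier results of these data known. Alternatives were all barcode copies, cells with at least 1000 genes, no top 5% of cells by UMIs, equal weight per cell, no mitochondrial UMIs, a pseudocount of 10 CPM, a floor of 50 CPM, full depth and each pool left out. Leaving out long-term pools 1 to 3, and each pool in every comparison, was added after seeing the data. Single tumors and drug arms were not analysed here.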

Additional observations from a re-analysis of the deposited data

Results flagged for a closer look

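In 118 groups of 4 or 8 pools, 3 pools stood apart from the rest of their group, where chance alone sets apart about 1 group in 20. Only Macro-M2, Macro-others, Macro-MKI67, CD16-CDKN1C, CD14-IL1B, i_CAF and the malignant clusters were scanned, for members with enough signal. C1q in i_CAF and malignant cells and Cfp outside the myeloid classes were left out. Cfp in short-term T127 i_CAF, at 99.6 CPM in pool 3 and 2.14 to 6.93 CPM in the others, was thus not scanned. C4b in Macro-others of the short-term T127 pools was 73.2 CPM in pool 2 and 22.6 to 30.7 CPM in the other 3. Cfb in Macro-MKI67 of the short-term T127 pools was 161 CPM in pool 3 and 93.5 to 101 CPM in the others. Cfp in Macro-M2 of the short-term T22 pools was 214 CPM in pool 1 and 182 to 187 CPM in the others, all below the lowest short-term T127 pool.

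Of 33 contrasts of a class with Macro-M2 with at least 10 CPM on 1 side in both models, 2 went opposite ways in the short-term models in every pool, both for Cfb. The log2 ratio of i_CAF to Macro-M2 was -0.75 in short-term T22 and 0.48 in short-term T127. For CD16-CDKN1C against Macro-M2 it was -0.57 and 0.35. Over all 45 contrasts, whatever the level, 1 more did so, C4b in Macro-others, at -2.45 in short-term T22, where the levels were 0.845 and 9.11 CPM, and 1.39 in short-term T127. The difference between the models was not tested, as each was 1 sample, and model and capture cannot be told apart.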

How the results depend on the processing

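No paired analysis was possible because the results come from no test and a pool number only names a capture. Depth, class size and the lack of a tumor for each cell limit the values, and 1 direction was reversed among values past the fold, as given next. Over 14 comparisons 49 values of members were past the fold. Of these 40 stayed past it with each pool left out in turn, which was extended to all comparisons after seeing the data, and 9 went under it, or under the floor of 10 CPM, without some pool: C1qc and C3 in Macro-M2, Cfb in Macro-others and C1qa, C1qb and Cfp in i_CAF between the short-term models, C1qc between Malign_2 and Malign_3, C3 between Malign_1 and Malign_0, and C1qc between short-term T22 i_CAF and my_CAF. The last, 1.12 with all pools, ran from -0.12 without pool 1 to 2.17 without pool 3, and so changed sign. Leaving out long-term pools 1 to 3 moved none of 18 values by more than the standard deviation over pools. Such a step can hardly pass that limit. The C1s1 ratio in i_CAF, which was -0.06, ran from -0.25 to 0.08 over left-out pools. With cells weighted equally C1qa in Macro-others was 10468 CPM in place of 10099, and the C3 log2 ratio in Macro-M2 was -1.22 in place of -1.04. With a pseudocount of 10 CPM the long-term malignant log2 ratios were 1.05 for C3 and 1.13 for C4b.

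At full depth the shares of cells were 95.8% for C1qa, 95.05% for C1qb and 94.0% for C1qc in long-term Macro-others, 70.1% for C3, 83.9% for C4b, 74.7% for Cfb, 77.7% for C1s1 and 73.0% for C1ra in i_CAF, and 66.6% for Cfp in CD14-IL1B.

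Counts of genes past the fold were smaller with a floor of 50 CPM, which examines fewer genes, and with a pseudocount of 10 CPM. Between the short-term models they went from 927 to 363 and 467 in CD14-IL1B, from 1516 to 717 and 906 in CD16-CDKN1C, from 1058 to 549 and 666 in Macro-M2, from 1117 to 522 and 689 in Macro-MKI67, from 1361 to 639 and 877 in Macro-others, and from 523 to 238 and 304 for genes lower in T22 i_CAF. They went from 1535 to 603 and 981 for Malign_2 against Malign_3, from 148 to 78 and 86 for Malign_1 against Malign_0, and from 216 to 85 and 109 (long-term) and 196 to 61 and 77 (short-term T22) for Macro-M2 against Macro-M1. With the floor alone they went from 3151 to 1372 and from 3807 to 1890 for long-term and short-term malignant cells, and from 1234 to 507 and 1007 to 503 for i_CAF against my_CAF in the long-term and short-term T22 pools. With the floor 5 of 8 members in i_CAF stayed past the fold and lower in T22, with the pseudocount 6 of 9. In Macro-M2 the pseudocount left 2 of 7. In long-term malignant cells 1 member was left to examine with the floor and 0 were past the fold.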
